A study of Mus musculus with 8 samples.

Results

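Cytosolic ribosomal proteins, the protein subunits of the ribosome that translates nuclear-encoded messages, were followed across cells sorted from the crypts of the mouse intestine. The genes were those whose symbol is Rpl, Rps or Rplp followed by a number, read from probe sets that name 1 gene. Ribosomal S6 kinase genes and predicted pseudogenes were left out, and each gene was represented by its probe set with the highest mean over the 6 EphB2 arrays. This gave 47 genes of 18193 measured, 26 of the large and 21 of the small subunit. Of 79 core ribosomal protein genes listed for mouse, 42 were among them. The other 5 were the paralogs Rpl22l1, Rpl39l, Rpl3l, Rpl7l1 and Rps27l. A further 26 core genes were read only by probe sets that also name pseudogenes or predicted genes. Rpsa and Fau were measured but are named outside the pattern. The remaining 9 core genes were not analysed here. Rps4l, which RefSeq lists as a transcribed pseudogene, was set aside.

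The crypt cells came from C57BL/6 mice and were sorted by flow cytometry, and their RNA was amplified isothermally before it was hybridized to Affymetrix arrays. EphB2 High, EphB2 Medium and EphB2 Low cells, separated with an antibody to the EphB2 receptor, had 2 arrays each, 1 in each of 2 hybridizations, and no allele is given for them. Lgr5 High and Lgr5 Low cells carried an Lgr5-EGFP knock-in, in which the Lgr5 locus drives the green fluorescent protein used for sorting, and had 1 array each in a hybridization of their own. EphB2 is a surface receptor whose level declines from the crypt base upwards, and Lgr5 marks the cycling stem cells at the base. Nothing in the labels ties the 2 replicates of a group to different animals, and p-values here speak only of the variation seen among these arrays, which could be technical. Values are log2 RMA values, so a difference of 1 is a 2-fold change. The brightness of a probe set depends on its probes as well as on the RNA, so RNA levels are compared between arrays and not between genes, and a brightness given across genes describes their probe sets. In such bulk samples, fewer cells of a type and less RNA per cell cannot be told apart, and RMA, which gives all arrays a like distribution, hides a change in total RNA per cell.

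The samples bore the marks of crypt epithelium. The median over 11 epithelial markers lay between 13.26 and 13.55 on every array. Markers of cells from outside the epithelium had medians of 4.09 to 4.91 for 14 lymphocyte genes, 4.38 to 5.21 for 13 myeloid genes, 4.10 to 4.64 for 13 stromal and endothelial genes and 3.71 to 4.49 for 5 red blood cell genes. Between EphB2 High and EphB2 Low cells all 8 stem cell markers and all 9 measured proliferation markers were higher and all 11 measured enterocyte markers were lower (limma, adjusted p below 0.05 over all genes). Of the secretory markers, 5 of 6 measured for Paneth cells and 4 of 6 for tuft cells were higher, and 4 of 7 for goblet cells and 4 of 9 for enteroendocrine cells were lower. Medians of the proliferation markers were 12.30 and 12.49 on the EphB2 High arrays, against 10.89 and 10.01 on the EphB2 Low arrays, and the part of these markers' cells in the ribosomal protein differences below was not tested.

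A ribosome joins a small subunit, which reads the message, to a large subunit, which forms the peptide bond, and each holds ribosomal RNA and a fixed set of proteins. The messages of ribosomal proteins are among the most abundant of a cell. Most of them begin with a run of pyrimidines, the 5′ terminal oligopyrimidine or TOP element, through which the kinase mTOR and the RNA-binding protein Larp1 set their translation. In the intestine, ribosome production is high in the dividing cells of the crypt, where Myc acts.

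The start sites of these genes are shown because most ribosomal protein messages begin with a pyrimidine run. The selection of genes did not use this run. RefSeq promoters (build GRCm38.p6) were found for 42 of the 47 genes, 50 starts in all, each running from 250 bases before the start to 50 after it. A run of 7 or more C or T bases on the gene's own strand, touching the 20 bases on either side of the start, was present in 29 of the 50 promoters (58.0%), against 30.2% of all 32851 promoters of the same length. The letters CGGAAG, or CTTCCG on the other strand, the core that GABP and other ETS factors can bind, were in 60.0% of these promoters and in 16.9% of all. The letters AAGATGGC, or GCCATCTT on the other strand, a form of the YY1 motif, were in 8.0% and 2.75%. A match is a description of the letters and not a binding site. The windows below hold 45 bases before the start and 25 from the start on, with capitals for pyrimidine runs by this rule and for CGGAAG. They are those of the 5 genes called in any comparison, and of Rpl38 and Rplp2, which were not called and which have the run as well.
Rpl12, chr2:32961667-32961736, plus strand: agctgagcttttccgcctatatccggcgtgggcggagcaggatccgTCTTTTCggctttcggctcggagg
Rpl14, chr9:120571472-120571541, plus strand: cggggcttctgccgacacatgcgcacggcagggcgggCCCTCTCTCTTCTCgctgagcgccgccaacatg
Rps6, chr4:86857343-86857412, minus strand: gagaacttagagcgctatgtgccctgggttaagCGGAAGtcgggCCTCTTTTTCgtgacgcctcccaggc
Rpl7l1, chr17:46782632-46782701, minus strand: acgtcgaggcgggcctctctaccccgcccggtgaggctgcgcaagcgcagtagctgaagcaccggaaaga
Rps25, chr9:44407669-44407738, plus strand: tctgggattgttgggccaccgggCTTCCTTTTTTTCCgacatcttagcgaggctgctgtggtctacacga
Rpl38, chr11:114668535-114668604, plus strand: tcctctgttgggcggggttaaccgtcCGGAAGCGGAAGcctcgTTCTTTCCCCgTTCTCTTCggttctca
Rplp2, chr7:141447606-141447675, plus strand: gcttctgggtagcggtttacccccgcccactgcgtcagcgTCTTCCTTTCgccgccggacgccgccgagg
The run was 14 bases long in Rpl14 and Rps25, 10 in Rps6, Rpl38 and Rplp2 and 7 in Rpl12, and none touched the 20 bases on either side of the start in Rpl7l1. In Rps25 the whole run lay before the RefSeq start, so a run by this rule need not be a TOP element.

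Ribosomal protein probe sets made up a large share of the brightest on every array. Of the 47 genes, 34 were within the brightest 1% of genes by their mean over the EphB2 arrays, which began at 13.44. Another 8 lay between 7 and 13.44 and 5 below 7. The highest mean over all 8 arrays was that of Rpl41, the smallest ribosomal protein, at 14.61, and the lowest that of Rps16 at 2.62. Besides Rps16, the dim group held Rpl37, Rpl39, the testis-enriched paralog Rpl39l and the muscle-enriched paralog Rpl3l. Counted with the probe sets that also name pseudogenes, 206 probe sets read 73 ribosomal protein genes. Among the 100 brightest probe sets of an array, 71 and 67 were of this kind on the EphB2 High arrays, 67 and 61 on the EphB2 Medium arrays and 51 and 46 on the EphB2 Low arrays. Every EphB2 High array thus had more of them than every EphB2 Low array. The Lgr5 High array had 71 and the Lgr5 Low array 63. Such a count depends on the other probe sets as well. Enterocyte markers, for 1, had medians of 11.07 and 10.32 on the EphB2 High arrays and 13.61 and 13.69 on the EphB2 Low arrays. Their part in the counts was not tested. The 135 ribosomal protein probe sets at 13.44 or more differed between these groups by a median of 0.14, or -0.15 with arrays centred on their gene medians.

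**Figure D1:**
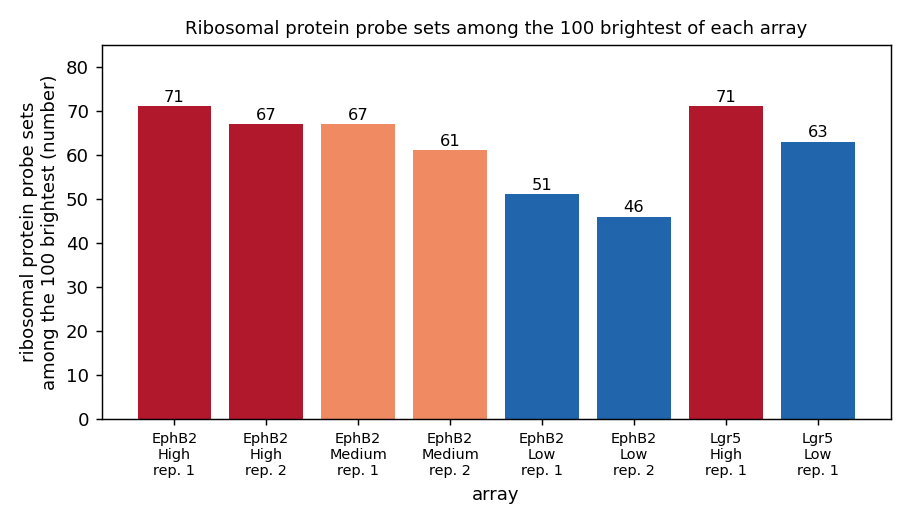
Ribosomal protein probe sets among the 100 brightest probe sets of each array (number, vertical axis), 1 bar per array. The EphB2 High arrays hold 71 and 67, the EphB2 Medium arrays 67 and 61, the EphB2 Low arrays 51 and 46, the Lgr5 High array 71 and the Lgr5 Low array 63. The counts depend on the brightness of other probe sets too.

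EphB2 High against EphB2 Low cells sets the base of the crypt against its upper part. A call needed a limma adjusted p below 0.05, adjusted over all 18193 genes. Of the 47 genes, 4 rose in EphB2 High cells, the large subunit genes Rpl12 and Rpl14, the paralog Rpl7l1 and the small subunit gene Rps6, and 0 fell. Of all genes, 22.0% rose and 15.3% fell, 37.3% in either direction, so the share called was smaller among ribosomal protein genes than among all genes in this fit; with an intensity trend in the prior variance 19 of 47 rose, against 23.8% of all genes. limma gave 7 of the 47 an unadjusted p below 0.05, all higher, beside 8245 of all 18193 genes, 4748 of them higher. The small difference was nevertheless widespread. In 39 of the 47 genes both EphB2 High arrays lay above both EphB2 Low arrays (36.4% of all genes did), and in 0 both lay below. The log2 difference was above 0 in 43 of 47, against 50.8% of all genes, with a median of 0.13 beside 0.01 over all genes, but with every array centred on its median over the 18193 gene probe sets the median became -0.16 and 7 of 47 were above 0. With centring on the median over all 45037 probe sets, chosen after seeing the data, it stayed above 0, at 0.08, and 41 of 47 were above 0. The first centring moved the median of all genes to -0.28 and the second to -0.04. Relative to all genes the ribosomal protein median was higher by 0.12 without centring. Centring shifts all genes of an array alike, so it cannot change this value. After a further quantile normalization the value was 0.16. Within the first hybridization the median difference was 0.12 and within the second 0.19.

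Rpl12, a large subunit protein at the base of the stalk that recruits translation factors, showed the largest difference among the representative probe sets. Dimmer probe sets naming Rps24 or Rpl22 alone, taken up below, differed more, by 2.39 and 1.49. The brighter probe sets of Rpl12, which also name pseudogenes, differed by 0.02 and 0.25. On its representative probe set Rpl12 stood at 9.94 and 9.79 on the EphB2 High arrays and at 8.96 and 8.05 on the EphB2 Low arrays. The groups did not overlap, and the spread was widest among the EphB2 Low arrays (SD 0.64, n = 2). The difference was 1.36 ± 0.30 on the log2 scale with 2 arrays in each group, where ± is limma's standard error here and below, or 2.56-fold (limma adjusted p = 0.0156). It passed no longer without EphB2 High replicate 1 (adjusted p = 0.0766) or replicate 2 (0.0624), within a range of 0.00239 to 0.896 over all its alternatives, and was 0.90 without EphB2 Low replicate 2.

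Rpl14, another large subunit protein, was at 11.77 and 11.82 in EphB2 High cells, against 10.81 and 10.46 in EphB2 Low cells. It rose by 1.16 ± 0.15 (2.24-fold, limma adjusted p = 0.00267). Rps6, the small subunit protein that S6 kinases phosphorylate downstream of mTOR, was at 12.46 and 12.44 in EphB2 High cells, against 11.70 and 11.61 in EphB2 Low cells. In both genes every EphB2 High array lay above every EphB2 Low array. Rps6 rose by 0.79 ± 0.11 (1.73-fold, limma adjusted p = 0.00313). Rpl7l1, a paralog of the large subunit gene Rpl7 whose relative in yeast takes part in subunit assembly, was at 12.17 and 12.13 in EphB2 High cells and at 11.57 and 11.18 in EphB2 Low cells. It rose by 0.78 ± 0.16 (1.72-fold, limma adjusted p = 0.0133), and passed no longer without EphB2 High replicate 1 (adjusted p = 0.0671) or replicate 2 (0.063; 0.00284 to 0.0671 over its alternatives). With arrays centred on their gene medians the differences of Rpl12, Rpl14, Rps6 and Rpl7l1 were 1.07, 0.88, 0.51 and 0.49, and all 4 kept their call.

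A further 3 genes missed the threshold narrowly and passed with the hybridization as a block. This brought the count to 7 of 47, beside 23.8% of all genes higher in that fit. They were Rps26, a small subunit protein at the channel where the message leaves (0.40 ± 0.12, limma adjusted p = 0.0506, and 0.0294 with the block), the small subunit protein Rps25 (0.48 ± 0.16, 0.0586 and 0.0496) and the zinc-binding large subunit protein Rpl37a (0.37 ± 0.13, 0.0719 and 0.0376). Rps26 was at 13.77 and 13.67 in EphB2 High cells, against 13.41 and 13.23 in EphB2 Low cells. Rpl37a was at 14.06 and 13.95, against 13.71 and 13.57. In each of these genes the groups did not overlap. Over all alternatives their adjusted p ran from 0.00472 to 0.52 for Rps26, from 0.0154 to 0.442 for Rps25 and from 0.00785 to 0.669 for Rpl37a, and with arrays centred on their gene medians the differences were 0.11, 0.20 and 0.08. Without EphB2 Low replicate 2 the difference of Rps25 was 0.28.

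**Figure D2:**
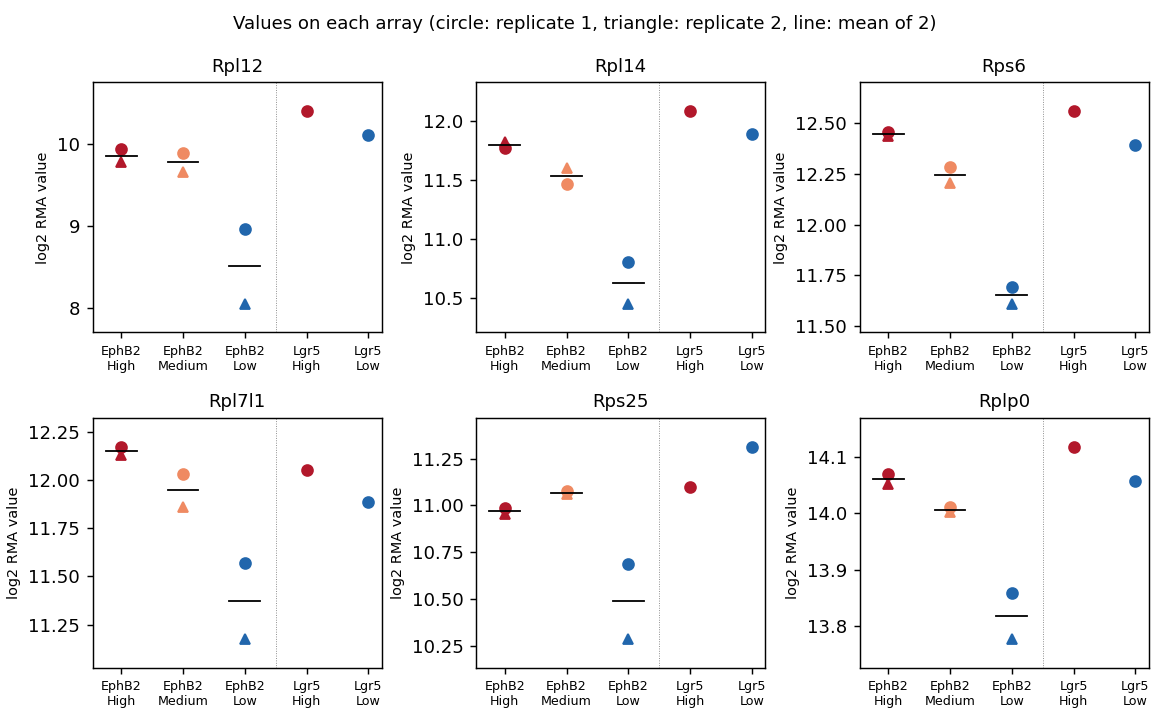
Log2 RMA values of 6 ribosomal protein genes on all 8 arrays (vertical axis, a scale of its own in each panel), with a circle for replicate 1, a triangle for replicate 2 and a line at the mean of 2 arrays. In Rpl12, Rpl14, Rps6, Rpl7l1, Rps25 and Rplp0 both EphB2 High arrays lie above both EphB2 Low arrays, and the single Lgr5 High and Lgr5 Low arrays lie closer together, with Rps25 lower in Lgr5 High.

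The remaining genes differed by 0.25 or less in either direction and did not pass. Of the stalk proteins, which recruit and activate elongation factors, Rplp0 was at 14.07 and 14.05 in EphB2 High cells, against 13.86 and 13.78 in EphB2 Low cells (0.24 ± 0.11, limma adjusted p = 0.135). Rplp2 was at 14.60 and 14.61, against 14.56 and 14.49 (0.08 ± 0.11). Neither overlapped between the groups, though the differences were small. Rps19 and Rps14, whose loss causes anaemias in people, differed by 0.25 ± 0.11 and 0.21 ± 0.11. Rpl11, which joins the 5S ribonucleoprotein and can bind the ubiquitin ligase Mdm2, differed by 0.10 ± 0.11. Rpl38, whose mouse mutants have a short tail and patterning defects, differed by 0.09 ± 0.11. Rps3, at the entry of the message channel, differed by 0.16 ± 0.11, and Rpl13a, known also as a translational silencer in inflammation, by 0.08 ± 0.11. All 6 lay between 13.61 and 14.36 on every array.

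Of the other genes at 13.44 or more, those that differed by 0.10 to 0.25 were Rpl8, Rps18, Rps7, Rps29, Rps2, Rps9, Rpl7, Rpl10a, Rps28, Rps10, Rpl27, Rpl35, Rps4x, Rpl6, Rps15 and Rpl4, and none was called. Smaller differences were those of Rpl19, Rpl22, Rps3a1, Rps20, Rpl7a, Rpl27a and Rpl41, and Rps24 at -0.01. The dim group showed no call either, with Rpl37 at 0.12 ± 0.16, Rpl39l at 0.12 ± 0.22, Rps16 at -0.02 ± 0.20, Rpl3l at -0.08 ± 0.29 and Rpl39 at -0.13 ± 0.23. Median differences were 0.12 for the 26 large subunit genes and 0.19 for the 21 small subunit genes, and the difference between the subunits was not tested. Outside the naming pattern, the small subunit gene Rpsa, also known as the laminin receptor, differed by 0.21 ± 0.11 and Fau, which encodes a ubiquitin-like fusion with a small subunit protein, by -0.01 ± 0.11.

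Paralogs and their parent genes were compared with care, since only the parent's or the paralog's own probe set was used. Rpl22l1 was at 13.12 and 13.27 in EphB2 High cells, against 13.05 and 12.90 in EphB2 Low cells, a difference of 0.22 ± 0.13, beside 0.09 ± 0.11 for Rpl22. Rps27l, known as a gene induced by DNA damage, differed by 0.14 ± 0.11, beside 0.25 ± 0.13 for Rps27. Rpl7l1 rose as given above, while its parent Rpl7 was at 13.95 and 14.04 in EphB2 High cells, against 13.84 and 13.81 in EphB2 Low cells (0.17 ± 0.11, limma adjusted p = 0.305). The difference between a paralog's and its parent's change was not tested. The excluded Rps4l was at 11.12 and 10.78 in EphB2 High cells, against 11.20 and 11.02 in EphB2 Low cells (-0.16 ± 0.18).

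**Figure D3:**
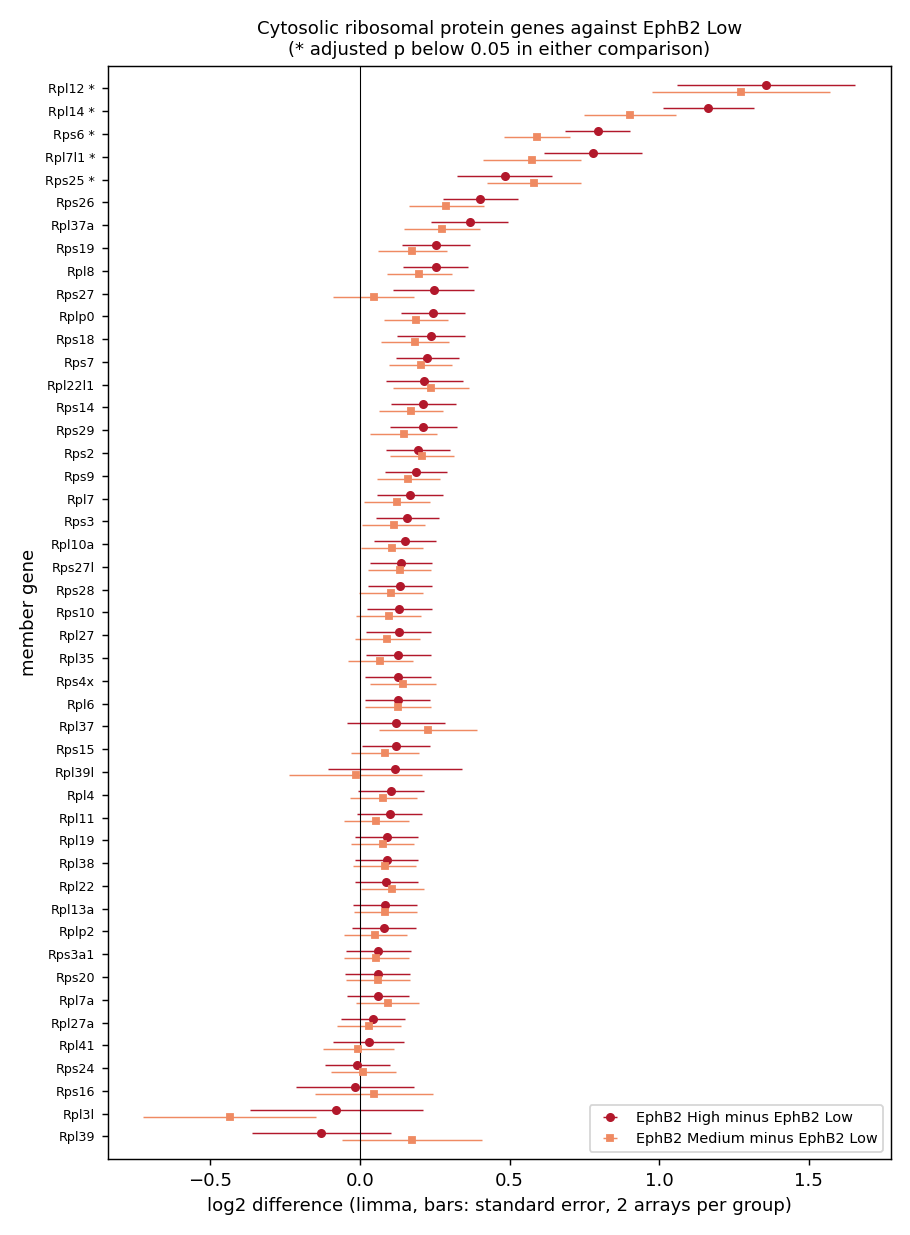
Log2 differences of all 47 genes, EphB2 High minus EphB2 Low (circles) and EphB2 Medium minus EphB2 Low (squares), with limma's standard error as bars (2 arrays per group); an asterisk marks a gene called in either comparison. From Rpl12 at 1.36 the differences run down to Rpl39 at -0.13, and most circles lie just right of 0; with arrays centred on their gene medians, 7 of the 47 circles would lie above 0, and 41 with centring on the median of all probe sets.

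Differences varied with the brightness of the probe set. In the 34 genes at 13.44 or more, differences ran from -0.01 to 0.40 with a median of 0.13, and 0 were called by limma. In the 8 genes between 7 and 13.44 the median was 0.63 and 4 were called, and in the 5 genes below 7 the median was -0.02 and 0 were called. To see whether this held beyond the chosen probe sets, all 206 ribosomal protein probe sets were read from a fit over all 45037 non-control probe sets, in which 15.4% were higher and 11.9% lower. The limits of this grouping were chosen after seeing the data. Of the 206, 25 were higher in EphB2 High cells and 0 lower, over 20 of 73 genes. They were 15 of the 102 probe sets that name 1 gene and 10 of the 104 that also name pseudogenes.

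By brightness, 0 of the 135 ribosomal protein probe sets at 13.44 or more were called, with a median difference of 0.14. Among the 235 other probe sets of that brightness 5.11% were higher and 4.68% lower, with a median of -0.07. Between 7 and 13.44, 21 of 49 ribosomal protein probe sets were higher (42.9%), with a median of 0.64, against 26.3% of 18955 other probe sets, with a median of 0.07. Below 7, 4 of 22 were higher (18.2%), against 7.53% of 25641 others. The classes were not tested against each other. Calls in either direction were thus a smaller share among the brightest probe sets, of ribosomal proteins or not, than between 7 and 13.44. The highest value of an array lay between 14.58 and 14.70, so probe sets at 13.44 or more lay near the top of the range. Whether differences in RNA are read in full at such brightness was not tested.

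**Figure D4:**
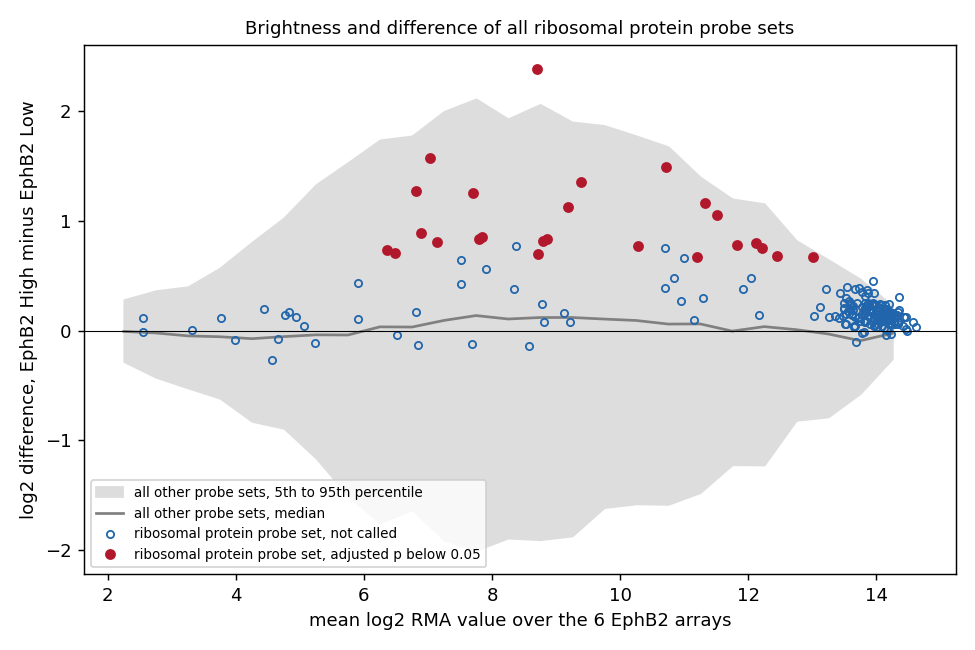
Mean log2 RMA value over the 6 EphB2 arrays (horizontal axis) against the log2 difference EphB2 High minus EphB2 Low (vertical axis) for 206 ribosomal protein probe sets, with the band holding the middle of all other probe sets from the 5th to the 95th percentile. The 25 called probe sets, filled, lie below 13.44, and the 135 at 13.44 or more lie between -0.10 and 0.45 with a median of 0.14, which is -0.15 with arrays centred on their gene medians and 0.08 on the median of all probe sets.

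Probe sets of the same gene often gave different answers. Of the 23 genes with several probe sets naming them alone, 14 had none called, and in 2 (Rpl7l1 and Rps6) the brightest was called. In the other 7 the brightest was not called while a dimmer one was higher, and in 0 was any probe set lower. These were Rpl13a, Rpl22, Rps10, Rps18, Rps20, Rps24 and Rps3. All p-values on single probe sets are limma's, adjusted over the 45037 probe sets.

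Rps24, a small subunit protein, gave the widest spread. Its brightest probe set was at 13.80 and 13.79 in EphB2 High cells, against 13.77 and 13.84 in EphB2 Low cells, and the groups overlapped. A dimmer one was at 9.48 and 9.95 in EphB2 High cells, at 9.05 and 9.12 in EphB2 Medium cells and at 7.38 and 7.27 in EphB2 Low cells. On it the groups stood fully apart, with a difference of 2.39 ± 0.19 (limma adjusted p = 0.0011). The Lgr5 High array was at 10.13 on this probe set and the Lgr5 Low array at 9.01.

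Rpl22, a large subunit protein that also binds other RNAs, behaved alike on its dimmest probe set. That probe set was at 11.04 and 11.60 in EphB2 High cells, against 9.93 and 9.74 in EphB2 Low cells (1.49 ± 0.22, limma adjusted p = 0.0058), while the brightest was at 14.16 and 14.18, against 14.11 and 14.05. Rps10, a small subunit protein near the message entry, gave 1.27 ± 0.19 on its dimmest of 6 probe sets, at 7.37 and 7.24 in EphB2 High cells, against 6.25 and 5.81 in EphB2 Low cells. Its other 5 probe sets, all above 13, gave 0.12 to 0.24. Rps20 gave 1.25 ± 0.21 and 0.89 ± 0.19 on a pair of dim probe sets and 0.06 and 0.04 on a pair of bright ones. Rps3 gave 1.06 ± 0.23 on a probe set with a mean of 11.52, and Rps18 gave 0.70 ± 0.13 and 0.73 ± 0.19 on probe sets with means of 6.48 and 6.36. Rpl13a gave 0.68 ± 0.14 and 0.68 ± 0.17 on its less bright probe sets. A dim probe set did not always differ, since one of Rps24 at a mean of 4.84 gave 0.17 ± 0.26 and one of Rps3 at 3.31 gave 0.00 ± 0.14.

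**Figure D5:**
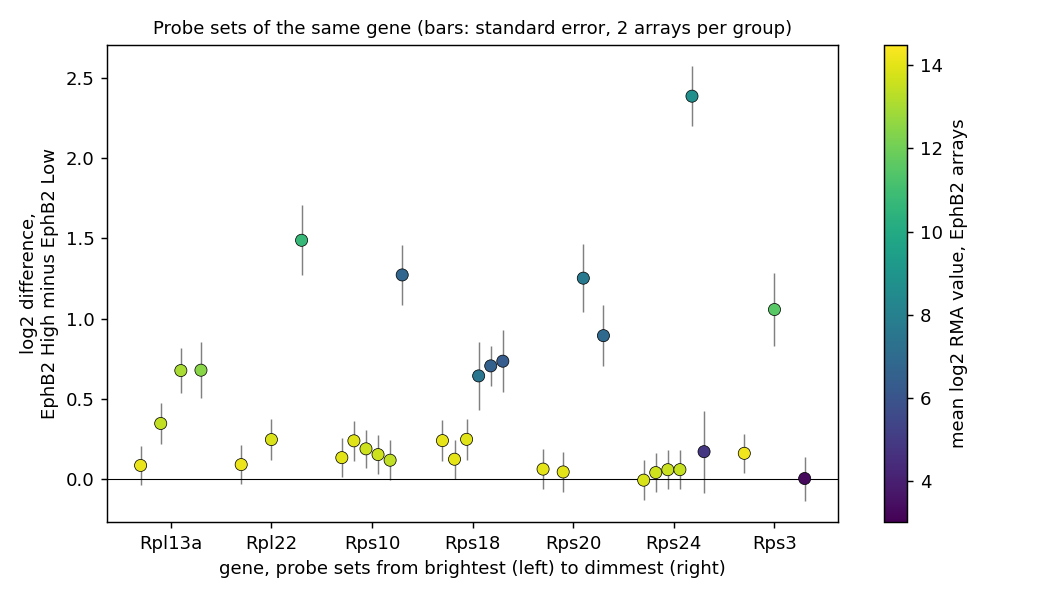
Log2 difference EphB2 High minus EphB2 Low (vertical axis, bars: standard error, 2 arrays per group) of every probe set that names Rpl13a, Rpl22, Rps10, Rps18, Rps20, Rps24 or Rps3 alone, ordered within a gene from brightest to dimmest and coloured by mean log2 RMA value. The brightest probe sets of the 7 genes lie between -0.01 and 0.24, and dimmer ones reach 2.39 in Rps24.

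Of the called genes, Rpl12, Rpl14 and Rps6 had brighter probe sets too, among those that also name pseudogenes, and Rpl7l1 had none. For Rpl12 the brighter probe sets stood at 14.12 and 13.83 on average and differed by 0.02 ± 0.12 and 0.25 ± 0.12. For Rpl14 there were 5 of them, with differences from 0.19 to 0.24, and the brightest for Rps6 differed by 0.19 ± 0.12. The second single-gene probe set of Rps6, at a mean of 4.57, differed by -0.27 ± 0.27. When the brightest probe set of any kind stood for each of the 73 genes, a choice made after seeing the data, 2 rose (Rpl7l1 and Rps7) and the calls of Rpl12, Rpl14 and Rps6 were lost (adjusted p = 0.896, 0.137 and 0.228). Over all alternatives the adjusted p ran from 0.000428 to 0.137 for Rpl14 and from 0.000234 to 0.245 for Rps6, whose difference was 0.26 with the mean of its probe sets. With the mean over a gene's probe sets 9 of 47 rose, against 21.1% of all genes, and with dim genes left out 9 of 42, against 36.8%.

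EphB2 Medium cells, of the middle of the crypt, were set against the same EphB2 Low arrays. Of the 47 genes 4 rose, Rpl12, Rpl14, Rps6 and Rps25, and 0 fell, while 14.6% of all genes rose and 10.1% fell. limma gave 5 of the 47 an unadjusted p below 0.05, all higher, beside 6654 of all 18193 genes, 3819 of them higher. In 36 of 47 both EphB2 Medium arrays lay above both EphB2 Low arrays (32.5% of all genes did), and in 0 below. The difference was above 0 in 44 of 47, against 49.4% of all genes. The median difference was 0.11, beside -0.01 over all genes, and -0.12 with arrays centred on their gene medians, where all genes had -0.24 and 8 of the 47 were above 0, but 0.08 with 43 above 0 on the median of all probe sets. Within the first and second hybridization it was 0.10 and 0.15.

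Rpl12 was at 9.89 and 9.67 in EphB2 Medium cells, against 8.96 and 8.05 in EphB2 Low cells, and rose by 1.27 ± 0.30 (limma adjusted p = 0.0293). Rpl14 was at 11.46 and 11.60 in EphB2 Medium cells and rose by 0.90 ± 0.15 (limma adjusted p = 0.0119). Rps6, at 12.28 and 12.21, rose by 0.59 ± 0.11 (limma adjusted p = 0.0151). The EphB2 Medium arrays lay apart from the EphB2 Low arrays in each. Rps25, a small subunit protein needed for initiation at some internal sites, was at 11.08 and 11.06 in EphB2 Medium cells, against 10.69 and 10.29 in EphB2 Low cells. It rose by 0.58 ± 0.16 (limma adjusted p = 0.0452). Rpl7l1 differed by 0.58 ± 0.16 (limma adjusted p = 0.0523), and passed with the hybridization as a block (0.0323; 0.017 to 0.205 over its alternatives).

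These calls rested on few arrays. Without EphB2 Medium replicate 1 or replicate 2 in turn 0 of the 47 were called, while 4.83% and 2.24% of all genes rose, against 14.6% with both. The differences themselves stayed close, at 1.16 and 1.39 for Rpl12, 0.97 and 0.83 for Rpl14, 0.55 and 0.63 for Rps6 and 0.58 and 0.59 for Rps25. Without either EphB2 High array, which enters through the shared estimate of spread, Rpl12 (adjusted p = 0.0567 each time; 0.00506 to 0.873 over its alternatives) and Rps25 (0.0849; 0.0158 to 0.674) passed no longer. Without EphB2 Low replicate 2 the calls of Rps25 (0.123) and Rps6 (0.0586; 0.00198 to 0.951) were lost, the differences of Rpl12 and Rps25 were 0.82 and 0.38, and Rpl3l, at a level below 6, was called lower (-0.88, adjusted p = 0.0329; 0.0329 to 0.983). With arrays centred on their gene medians Rps25 (0.121) and Rps6 (0.0925) did not pass either, nor did Rps25 on the median of all probe sets (0.0519). Of the 206 ribosomal protein probe sets, 16 were higher in EphB2 Medium cells and 0 lower, over 14 genes, against 8.54% and 6.78% of all 45037.

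Between EphB2 High and EphB2 Medium cells limma called 0 of the 47 genes in either direction, at the adjusted and at the unadjusted threshold, and 0 in every alternative run. Of all genes 0.214% rose and 1.15% fell, and 2579 of 18193 had an unadjusted limma p below 0.05. The difference was above 0 in 34 of 47, against 55.0% of all genes, and in 12 of 47, against 45.5%, with arrays centred on their gene medians. The median difference was 0.0343, beside 0.0291 over all genes, and -0.02 with that centring, and 24 of 47 lay above the median of all genes. In 17 genes both EphB2 High arrays lay above both EphB2 Medium arrays (27.9% of all genes did), and in 2 below. The largest differences were 0.36 ± 0.29 for the dim Rpl3l and 0.26 ± 0.15 for Rpl14, and the lowest -0.30 ± 0.23 for Rpl39. Of the 206 ribosomal protein probe sets 0 were called here, while 0.0178% of all 45037 were higher and 0.282% lower.

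In 15 genes the 3 groups were fully ordered, with both EphB2 High arrays above both EphB2 Medium arrays and these above both EphB2 Low arrays (17.7% of all genes were). They were Rpl10a, Rpl14, Rpl27, Rpl7l1, Rpl8, Rplp0, Rplp2, Rps10, Rps18, Rps19, Rps26, Rps29, Rps3, Rps6 and Rps9. These values were not centred, and the array medians over all genes had the same order. Those medians were 7.99 and 8.02 for EphB2 High, 7.93 and 7.97 for EphB2 Medium and 7.79 and 7.64 for EphB2 Low. Whether the order of these genes remains with arrays centred was not tested. Rps19 gives an example among bright genes, at 13.99 and 13.98 in EphB2 High cells and 13.95 and 13.86 in EphB2 Medium cells. In EphB2 Low cells it was at 13.80 and 13.66. Its difference of 0.25 between EphB2 High and EphB2 Low cells was smaller than the 0.29 between the array medians of these groups. The 3 EphB2 comparisons share their arrays, so their values for a gene are not separate evidence.

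The Lgr5 sort had 1 array per group, so its differences have no replicate check and no test. The median over the 47 genes was -0.01, beside -0.05 over all genes, and 22 of 47 were above 0 (44.2% of all genes were). That median was 0.08 after a further quantile normalization. With a 2-fold difference as the limit, 0 of the 47 passed, while 2.34% of all genes were higher and 5.07% lower by that much. The largest difference was that of Rps16, at 3.13 in Lgr5 High and 2.54 in Lgr5 Low cells (0.60), at the dim end of the array.

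Next came Rpl12, at 10.41 in Lgr5 High and 10.12 in Lgr5 Low cells (0.29), Rpl3l (0.22), Rpl14 (0.20) and Rpl7l1 (0.17), with Rps6 just behind (0.17). The genes called higher in EphB2 High cells thus had positive differences in this sort as well, of a smaller size. At the other end lay Rps25, at 11.10 in Lgr5 High and 11.31 in Lgr5 Low cells (-0.21), Rpl39l (-0.18), Rps15 (-0.11), Rpl27a (-0.10), and Rps24 and Rpl7a (-0.10 each). Among the 206 probe sets 3 differed by 2-fold or more, all higher in Lgr5 High cells. Of all 18193 genes 2.34% were higher and 5.07% lower by that much, and the share over all probe sets was not counted. The 3 were the dim probe sets of Rps20 (1.28) and Rps24 (1.11) named above and a probe set of Rps6 (1.46). That of Rps6 was at 5.20 in Lgr5 High and 3.74 in Lgr5 Low cells. Stem cell markers had a median of 12.05 on the Lgr5 High array and 10.90 on the Lgr5 Low array, and proliferation markers 12.25 and 12.04.

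Genes of the machinery that makes ribosomes rose widely. Of 40 ribosome biogenesis genes 38 rose in EphB2 High against EphB2 Low cells, where 22.0% of all genes rose, and 0 fell, with a median of 1.27. Pes1, of a complex that matures the large subunit, was at 11.56 and 11.65 in EphB2 High cells, against 10.19 and 10.02 in EphB2 Low cells, and it rose. Its partner Wdr12 rose by 1.78 ± 0.18, Utp20, of the small subunit processome, by 1.81 ± 0.16, and the box C/D protein Nop58 by 1.43 ± 0.14. Noc2l, a nucleolar protein, was at 11.20 and 11.25 in EphB2 High cells, against 9.80 and 9.65 in EphB2 Low cells, and rose too. Of 76 mitochondrial ribosomal protein genes 30 rose (39.5%) and 0 fell, with a median of 0.35. The differences between these lists and the cytosolic ribosomal protein genes were not tested, and their probe sets were dimmer, with list medians per array of 10.43 to 11.83 for biogenesis and 11.75 to 12.08 for the mitochondrial genes, against 13.81 to 14.06. In EphB2 Medium against EphB2 Low cells 34 of the biogenesis genes and 14 of the mitochondrial ones (18.4%) rose and 0 fell, where 14.6% of all genes rose.

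Of 27 measured genes that carry, import or place ribosomal proteins 21 rose (77.8%) and 1 fell, with a median of 0.65. In the same comparison, EphB2 High against EphB2 Low cells, 22.0% of all genes rose and 15.3% fell. Tsr2, a chaperone of Rps26 in yeast, was at 10.29 and 10.32 in EphB2 High cells, against 8.80 and 8.13 in EphB2 Low cells (1.84 ± 0.22). Grwd1, related to the yeast chaperone of Rpl3, rose by 1.74 ± 0.21. The importins Ipo5 and Ipo9 rose by 1.62 ± 0.17 and 1.57 ± 0.15, and Lsg1, a GTPase of late large subunit maturation, by 1.41 ± 0.12. The gene that fell was Efl1, a partner of the same late step, named after its value was seen (-0.40), which did not pass with the hybridization as a block.

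Of 18 genes of factors linked to ribosomal protein gene transcription 7 rose (38.9%) and 3 fell, with a median of 0.51. Of all genes 22.0% rose and 15.3% fell. Myc was at 10.95 and 11.09 in EphB2 High cells, against 9.14 and 7.68 in EphB2 Low cells (2.61 ± 0.44, limma adjusted p = 0.00636), and at 11.70 in Lgr5 High, against 10.56 in Lgr5 Low cells. E2f1 rose by 1.88 ± 0.24, Gtf2i by 1.17 ± 0.11, Nfya by 0.90 ± 0.17, and Gabpb1, the partner subunit of the factor whose motif was counted above, by 0.85 ± 0.13. The 3 that fell were Max, Mxi1 and Zbtb7a, named after their values were seen (-0.52, -0.90 and -0.50). Yy1 differed by 0.14 (limma adjusted p = 0.371).

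Other TOP messages, from genes that are not ribosomal proteins, moved in part. Of 19 measured 7 rose (36.8%) and 0 fell, with a median of 0.31. The histone chaperone Nap1l1 rose by 1.92 ± 0.34, Npm1, a nucleolar chaperone, by 0.64 ± 0.12, the initiation factor subunit Eif3l by 0.54 ± 0.10, the elongation factor subunit Eef1d by 0.52 ± 0.12 and the chaperonin subunit Cct4 by 0.43 ± 0.10. Of 19 measured genes around mTOR and TOP translation 5 rose (26.3%, near the 22.0% of all genes) and 0 fell, with a median of 0.15. Larp1, which binds TOP messages, was at 12.28 and 12.51 in EphB2 High cells, against 11.76 and 11.61 in EphB2 Low cells (0.71 ± 0.14). The others were Larp7 (0.99 ± 0.14), Eif4ebp1, an inhibitor of cap binding (0.91 ± 0.17), the cap-binding Eif4e (0.61 ± 0.13) and the mTOR partner Mlst8 (0.47 ± 0.12). A link of Larp7 to mTOR or TOP translation was not tested. Mtor itself differed by -0.14 (limma adjusted p = 0.456). Mdm2, which Rpl11 can bind, differed by -0.28 ± 0.12 (limma adjusted p = 0.126).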

How the data were processed

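RNA of 8 samples of sorted crypt cells was read on Affymetrix arrays, and the deposited values are log2 expression values that the authors made with RMA, per the submitters' processing notes. The sources used here do not give whether 1 normalization covered all 8 arrays. Of 45101 probe sets, 64 were controls, 34945 named 1 gene, 932 several and 9160 none, from GEO's platform annotation with symbols updated through RefSeq. Arrays give no read depth, so their number limits the precision.

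For each of 18193 genes the probe set with the highest mean over the 6 EphB2 arrays was tested with limma 3.58.1 under R 4.3.3, using lmFit and then eBayes on contrasts of the 3 EphB2 groups (3 residual degrees of freedom), with Benjamini-Hochberg adjustment over all genes and a threshold of 0.05. The scripts were checked on simulated data. The Lgr5 arrays entered no test. The labels give each EphB2 replicate number its own hybridization, which pairs the arrays; arrays of the same number deviated from their groups' means with correlations of 0.45 (High and Medium), 0.13 (High and Low) and 0.21 (Medium and Low) over 18193 genes. The fit with this block is an alternative.

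Genes named were those called, up to 10 per direction and comparison, the extremes of the Lgr5 difference and of the level, paralog pairs, a set of ribosomal proteins with known special roles, and up to 5 genes of smallest p per other list. The members and the lists were chosen with earlier results of these data known. Alternatives covered the choice of probe set, centring of each array on its median over genes or over all probe sets, quantile normalization, an intensity trend, dim genes, the block and leaving out each array.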

Additional observations from a re-analysis of the deposited data

How the results depend on the processing

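The count of ribosomal protein genes higher in EphB2 High than in EphB2 Low cells was 4 of 47. Beside it, 22.0% of all genes were higher. It was 9 of 42 with dim genes left out (36.8% of all genes), 9 with the mean over a gene's probe sets (21.1%), 19 with an intensity trend (23.8%) and 2 of 73 with probe sets that also name pseudogenes, the last an alternative chosen after seeing the data. Leaving out each array in turn gave 2 to 5. No gene was called lower in EphB2 High cells in any alternative run. The median difference of 0.13 was -0.16 with arrays centred on their median over genes, 0.079 on the median over all probe sets, an alternative also chosen after seeing the data, 0.19 with the mean of probe sets, 0.18 without probe sets of the _x and _s kinds, 0.17 after quantile normalization and 0.12 to 0.17 with each array left out.

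For EphB2 Medium against EphB2 Low cells the count of 4, beside 14.6% of all genes, was 2 with centring on genes (9.51%), 13 with the intensity trend (17.2%), 7 with the mean of probe sets (13.9%), 0 with probe sets that also name pseudogenes and 0 to 5 with each array left out, and the count of lower genes was 0 to 1. The median of 0.11 was -0.12 with centring, 0.15 with the mean of probe sets and 0.10 to 0.14 with each array left out. Rps6 turned to -0.02 with the mean of its probe sets. Between EphB2 High and EphB2 Medium cells the median was -0.0207 with centring. The Lgr5 median of -0.01 was 0.0083 with the mean of probe sets, 0.0043 without probe sets of the _x and _s kinds, 0.0805 after quantile normalization and -0.041 with probe sets that also name pseudogenes. The cause of these shifts was not tested.

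With the hybridization as a replicate block the count was 7 of 47 for EphB2 High against EphB2 Low cells, beside 23.8% of all genes. It was 5 for EphB2 Medium against EphB2 Low cells, beside 16.3%, and 0 for EphB2 High against EphB2 Medium cells, beside 0.214%. Over single genes and all alternatives 2141 of 2226 values kept their side of the threshold, 54 passed newly and 31 no longer passed. The 31 could come only from differences called in the main fit, 4 in each comparison against EphB2 Low cells. Most of the 2226 values belonged to differences not called there, so the total says little about how firm the calls were. The sign turned in 188 of the 2226 values, 94 under centring on genes. Of the 188, 1 belonged to a called difference, that of Rps6 above. Dim probe sets and 2 arrays per group limit what can be detected. Most of the ribosomal protein genes, 34, were read at 13.44 or more, near the highest values of the arrays (14.58 to 14.70). Whether their small differences reflect near-constant RNA or the top of the range was not tested.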
